A study of Caenorhabditis elegans with 2 samples.

Results

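The cytosolic ribosomal protein genes of Caenorhabditis elegans were taken as every protein-coding gene of the Ensembl annotation of WBcel235 whose name starts with rpl-, rps- or rla-. This gave 81 genes of 19973 nuclear protein-coding genes. They comprised 50 of the large subunit, of which 47 are named rpl- and 3 are the acidic stalk genes named rla-, and 31 of the small subunit, named rps-. Names set the membership, and no measured value did.

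Ribosomal proteins fold around the ribosomal RNAs to build the large subunit, which joins amino acids, and the small subunit, which reads the messenger RNA. Growing animals need most of them in equal numbers, and their genes are among the most highly transcribed in most cells. MAB-5 is a Hox transcription factor of the posterior body, known for its part in neuroblast migration and in the identity of posterior cells. Hox proteins bind short AT-rich sites as homeodomain proteins, often jointly with PBC-class partners on a composite site.

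Binding was measured by chromatin immunoprecipitation and sequencing (ChIP-seq) against eGFP-tagged MAB-5 in whole L2 larvae. The animals were of strain OP27, which carries the mutation unc-119(ed3) on chromosome III and the insertion wgIs27, which targets mab-5, and both sexes were pooled. The labels name the antibody as mab-5. Both samples, biological replicates 1 and 2, form a single group, so there was no comparison between conditions, and no control sample was analysed here. Both replicates carry the same insertion, and whole animals were used, so the cells in which a site was bound cannot be told apart.

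The authors deposited peak lists on build ce11, each peak with a signal value of unstated scale. The relaxed lists of the 2 replicates and of both pooled hold 30000 entries each, and the authors describe them as peaks and background, so an entry need not be a binding site. The optimal list, which passed the irreproducible discovery rate (IDR) procedure, holds 2197 peaks, 2174 of them on nuclear chromosomes. It consists of the strongest 2197 peaks of the pooled list, so the signal of an IDR peak is 1 pooled value with no replicate error. Replicate error is therefore shown by the rank and signal of the overlapping peak in each replicate's own list, where rank 1 is the strongest. Read depth is unknown because the lists hold no counts. A gene is called bound where the summit of an IDR peak lay between 2000 bp upstream and 500 bp downstream of its start, a word that says nothing of regulation.

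Of the 81 ribosomal protein genes, 55 were bound (67.9%, 95% Wilson interval 57.1 to 77.1), where 9.59% of all nuclear protein-coding genes were bound. The count was 32 of 50 for the large subunit (64%, interval 50.1 to 75.9) and 23 of 31 for the small subunit (74.2%, interval 56.8 to 86.3). The intervals of the subunits overlap, and a difference between them was not tested. All 3 stalk genes, rla-0, rla-1 and rla-2, were unbound, while 32 of the 47 rpl- genes were bound (68.1%, interval 53.8 to 79.6). Among all other protein-coding genes 1861 of 19892 were bound (9.36%). The intervals cover counting error only, and neighbouring genes that share a peak are not independent.

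The sequences under 6 summits are shown first, because 26 of the 52 distinct strongest peaks of bound genes held a short shared element. Each runs from 50 bases before to 50 bases after the summit, read along the strand of the ribosomal protein gene and taken from the NCBI copy of WBcel235 (ce11). No annotated gene overlaps them. Capitals mark the 6-mer ACCGTA or its reverse complement TACGGT, and the 7-mer GGCCTAA or its reverse complement TTAGGCC, both chosen after the windows were seen. The first 3 belong to the bound genes of highest signal with the 6-mer: rpl-3 (chrIII:3867516-3867616, plus strand), rpl-20 (chrIV:4750014-4750114, minus strand) and rpl-15 (chrIV:654880-654980, minus strand). The next holds both elements: rpl-43 (chrII:14154499-14154599, plus strand). The peak at rps-12 (chrIII:5679093-5679193, plus strand), the strongest of the small subunit, held neither. The last is the relaxed-list summit of rps-8 (chrIV:7314035-7314135, minus strand), the unbound gene of highest signal, with the 7-mer.
rpl-3: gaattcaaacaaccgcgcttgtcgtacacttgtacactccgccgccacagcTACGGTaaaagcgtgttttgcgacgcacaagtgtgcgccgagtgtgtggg
rpl-20: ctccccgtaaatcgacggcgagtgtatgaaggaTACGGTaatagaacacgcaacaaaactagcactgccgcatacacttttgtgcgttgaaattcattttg
rpl-15: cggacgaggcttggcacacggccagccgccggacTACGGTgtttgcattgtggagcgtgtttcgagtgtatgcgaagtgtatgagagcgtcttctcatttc
rpl-43: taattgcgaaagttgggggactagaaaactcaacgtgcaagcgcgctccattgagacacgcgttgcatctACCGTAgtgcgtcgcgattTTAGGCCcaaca
rps-12: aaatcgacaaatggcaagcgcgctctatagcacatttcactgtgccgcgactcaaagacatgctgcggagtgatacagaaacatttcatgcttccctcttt
rps-8: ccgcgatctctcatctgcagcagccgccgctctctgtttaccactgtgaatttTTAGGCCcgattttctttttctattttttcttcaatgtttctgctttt

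The strongest peak at a ribosomal protein gene was that of rpl-3, the gene of a protein close to the peptidyl transferase centre. Its summit lay 288 bp upstream and its pooled signal was 336, with a signal of 122.7 at rank 24 in replicate 1 and 211 at rank 21 in replicate 2. At rpl-20, a large subunit gene, the summit lay 286 bp upstream with a pooled signal of 268, and the replicates gave 114 at rank 26 and 156 at rank 34. At rpl-35, whose protein sits by the exit of the nascent peptide, the values were 236 at 451 bp upstream, with ranks 37 and 35. These 3 genes stood at nearly the same place in both replicates. At rpl-15 the pooled signal was 216 at 354 bp upstream, with ranks 61 and 36. The large subunit gene rpl-12, whose protein forms the base of the stalk, had a signal of 194 with ranks 55 and 46, and its summit lay 34 bp upstream of the start.

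Among genes of the small subunit rps-12 came first, with a pooled signal of 201 at 155 bp upstream and ranks 43 and 50. It was followed by rps-20 at 173 (247 bp upstream, ranks 66 and 67). The peak at rps-1 had a pooled signal of 164, with 85.9 at rank 41 in replicate 1 and 77.8 at rank 109 in replicate 2. At rps-19 the pooled signal of 145 came with 35.8 at rank 264 in replicate 1 and 106 at rank 62 in replicate 2. The order of rps-1 and rps-19 is thus opposite in the 2 replicates, so these neighbours in the list do not differ beyond the replicate spread. The peak at rps-28 had a signal of 135, with ranks 99 and 104. Summits at rps-12, rps-20 and rps-19 lay nearer the starts of the neighbours ska-3, ekl-4 and hsr-9. That at rpl-20 lay nearer the start of Y17G9B.5.

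Below these, rpl-11.2, a gene on X for a protein that binds 5S ribosomal RNA, had a signal of 119 and ranks 149 and 150. The next 9 bound genes lay between 100.03 and 79.7. They were rpl-41.2, rpl-22, rps-16, rpl-7A, rps-15, rps-24, rpl-24.2, rps-0 and rpl-23, in falling order of signal. Of these rps-24 differed most between replicates, with 63.2 at rank 174 in replicate 2 but 16.8 at rank 1403 in replicate 1. Of the 50 strongest nuclear peaks, 8 had a summit in the window of a ribosomal protein gene, as had 10 of the 100 strongest and 13 of the 200 strongest. Of all 2174 nuclear IDR peaks 53 had one. Such a peak can lie nearer the start of another gene. At the other end, the weakest bound genes were rpl-17 at 33.0, rps-5 at 32.8, rpl-33 at 32.0, rpl-13 at 31.6 and rps-29 at 30.4.

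**Figure D1:**
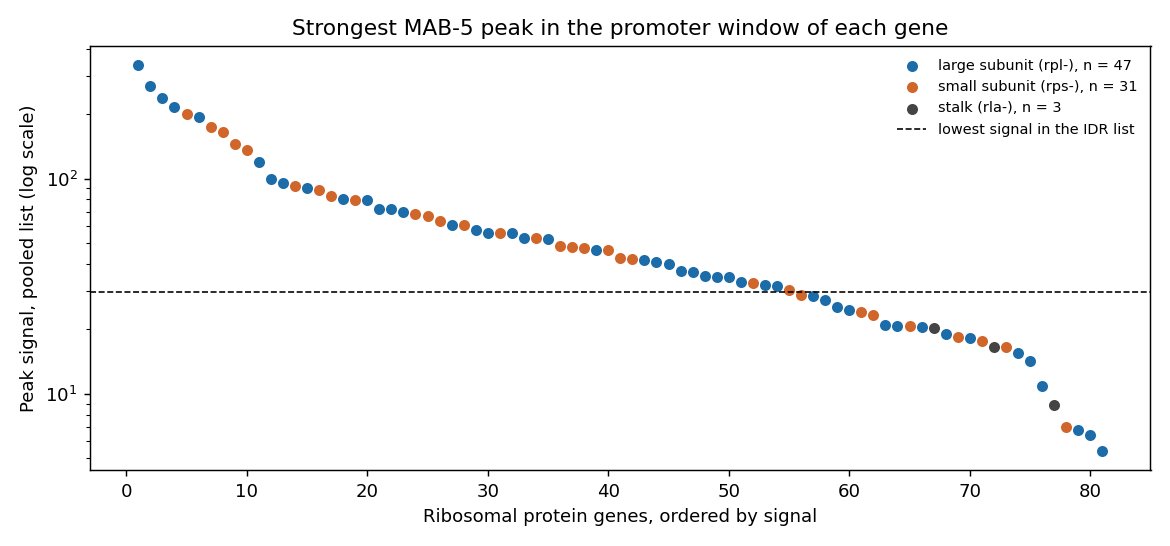
Strongest peak signal of the pooled list in the promoter window of each of the 81 genes, ordered from strongest to weakest on a log scale, with large subunit, small subunit and stalk genes in separate colours. The 55 bound genes run from 336 to 30.4 above the dashed line at the lowest signal of the IDR list, and both subunits appear among the strongest 5 and among the unbound.

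Over the 55 bound genes the median signal was 61.0, against 47.2 over the 1861 other bound genes. The large subunit had a median of 56.9 (n = 32) and the small subunit 63.8 (n = 23), with ranges of 31.6 to 336 and 30.4 to 201. Only rpl-3, rpl-20, rpl-35 and rpl-15 lay above the highest small subunit gene. The quartiles of all 55 were 42.5 and 91.2. The 11 strongest genes, from 119 upwards, lay above the upper of these, as did rpl-41.2, rpl-22 and rps-16. The 55 genes shared 52 distinct strongest peaks, of which 37 had a signal above 44.1, the median of the nuclear IDR peaks. These 52 peaks were narrower, with a median width of 244.5 bp (86 to 344), against 344 bp for all nuclear IDR peaks. Those from rps-18, with a signal of 42.7, downwards were all 344 bp wide. Widths were not compared at like signal.

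The summits lay in a narrow zone upstream of the starts. The median distance was 300 bp upstream, with quartiles at 257 and 371 bp. It was 309 bp for the large subunit (quartiles 256 and 374.5) and 286 bp for the small subunit (quartiles 262.5 and 362). Other bound genes had a similar median of 344 bp but much wider quartiles of 164 and 1036 bp. In the band 500 to 100 bp upstream, chosen after the distances were seen, lay 47 of the 55 summits (85.5%), against 44.9% for other bound genes. The share was 84.4% for the large and 87.0% for the small subunit. The start used is the first annotated base of the gene, which need not be the site where transcription begins, since many worm transcripts are trimmed by trans-splicing.

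The 8 genes outside that band show several arrangements. Summits of rpl-12 (34 bp upstream) and rpl-7A (81 bp upstream) lay closer to the start. Those of rps-29 (516 bp), rps-18 (636 bp) and rpl-43 (745 bp) lay farther upstream, and each of these peaks was nearer the start of a neighbour. At rpl-19 the summit was 339 bp downstream of the start, the only one downstream. The remaining pair were the farthest: rps-16 at 1765 bp and rpl-16 at 1782 bp upstream. Both genes lie on the same strand as a close upstream neighbour, with gaps of 109 bp to fib-1 and 105 bp to lias-1. Their peaks were nearest to the starts of those neighbours, fib-1, which encodes the nucleolar RNA methyltransferase fibrillarin (83 bp upstream, signal 91.9), and lias-1, the lipoic acid synthase gene. Gaps of about this size are typical of genes that C. elegans transcribes together as operons, but the annotation used here lists no operons.

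**Figure D2:**
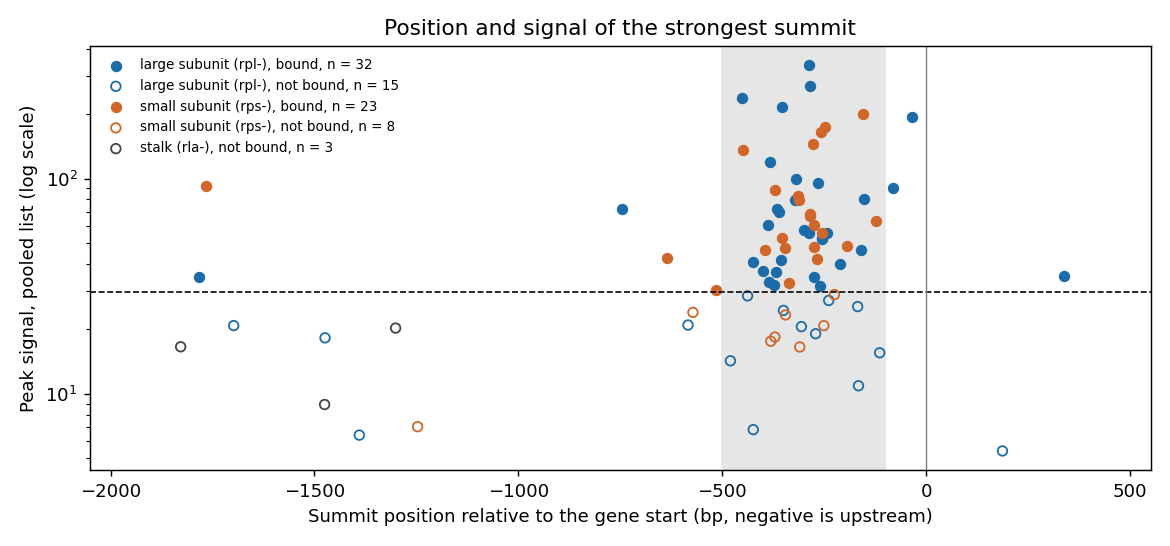
Distance of the strongest summit from the gene start in bp (negative is upstream) against peak signal on a log scale, with filled points for bound genes and open points for the strongest relaxed-list summit of unbound genes. The grey band from 500 to 100 bp upstream holds 47 of the 55 filled points and 16 of the 26 open ones, and the dashed line is the lowest signal of the IDR list.

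Worm genes are closely packed, and most of the peaks also lay near another gene. Of the 55 bound genes, 47 shared their strongest peak with the window of at least 1 other protein-coding gene, and 8 had a peak in no other window: rpl-3, rpl-35, rpl-11.2, rpl-24.2, rpl-14, rps-17, rpl-38 and rpl-13. For 30 of the 55 their own start was the nearest to the summit, and for 25 another start was nearer. When each IDR summit was given only to its nearest start, 31 ribosomal protein genes had one, where 9.43% of all genes did. That is 20 of the large and 11 of the small subunit. The 11 include rps-25, unbound by the window rule, with a summit 5626 bp upstream of its start. The distance to the next protein-coding gene upstream had a median of 543 bp at bound and 580.5 bp at unbound ribosomal protein genes, against 937 bp over all protein-coding genes.

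A pair of ribosomal protein genes shared 1 peak between them in 3 cases, each a divergent pair of a large and a small subunit gene. The peak between rpl-36 and rps-14 had a signal of 61.0, with ranks 1527 and 384, and lay 389 bp and 274 bp upstream of their starts. Between rpl-39 and rps-30 the signal was 55.9 (ranks 590 and 1092), at 244 bp and 255 bp. Between rpl-24.1 and rps-10 it was 53.0 (ranks 1101 and 535), at 256 bp and 354 bp. In each case the 2 genes cannot be told apart as the one bound. Over all 81 genes the upstream neighbour was divergent for 55 (67.9%), against 46.2% of all protein-coding genes. Of the 55 with a divergent neighbour 40 were bound (72.7%), and of the 26 with a neighbour on the same strand 15 were (57.7%). Among other protein-coding genes 12.6% with a divergent and 6.61% with a same-strand neighbour were bound. Each of the 3 shared peaks counts for 2 ribosomal protein genes on the divergent side, and the difference by orientation was not tested.

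Bound genes were found on every chromosome. On chromosome III 16 of 18 ribosomal protein genes were bound, where 15% of all genes there were. The counts were 17 of 25 on I (12.9% of all genes there), 5 of 10 on II (8.81%), 11 of 18 on IV (9.42%), 5 of 8 on V (5.95%) and 1 of 2 on X (8.75%).

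The replicates were set beside each other at the bound genes. An overlapping peak was found in replicate 2 for all 55 and in replicate 1 for 54, the exception being rpl-33, which had rank 1381 in replicate 2. The peak ranked within the first 2197 of both replicates for 45 of the 55 (81.8%), against 66.7% of the other bound genes. This gap rested on how peaks were matched: with an overlap of at least 50% of both peaks, it was 27 of 55 (49.1%), against 49.9% of the other bound genes. By the first matching it was 25 of 32 for the large and 20 of 23 for the small subunit. Replicate 1 gave the better rank at 29 genes and replicate 2 at 25, so neither was stronger throughout. Across the 51 distinct member peaks ranked in both, Spearman's rho of the ranks was 0.73, against 0.45 across 2101 other nuclear peaks. It is given as a description, since peaks of 1 library share their depth and background. Both values of rho rest on the first matching only, and peaks were not compared at like signal. Whether member peaks were more reproducible than others was therefore not settled.

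The largest differences in rank were at rpl-7, rps-6, rpl-36.A, rps-17 and rpl-16. At rpl-7 the peak had rank 901 in replicate 1 and 4331 in replicate 2, with signals of 21.3 and 11.96. At rps-6, whose protein is the substrate of S6 kinase in mammals, the ranks were 3506 and 822 and the signals 9.64 and 31.3. The ranks were 3288 and 1025 at rpl-36.A, 2633 and 591 at rps-17, and 1664 and 3336 at rpl-16. These 5 peaks had ranks of 939 to 1686 in the IDR list, below the 20 strongest members.

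**Figure D3:**
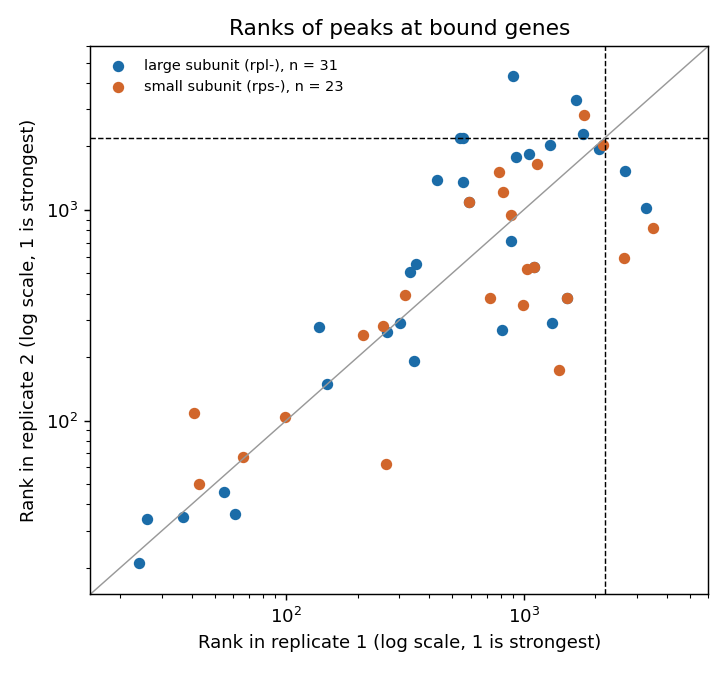
Rank of the overlapping peak in replicate 1 against replicate 2 at 54 bound genes, on log scales where 1 is the strongest, with large and small subunit genes in separate colours. Points with ranks below 100 in both replicates stay close to the diagonal, and points spread away from it towards the dashed lines at rank 2197.

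The count of bound genes was followed through other lists and windows. The 2197 strongest peaks of replicate 2 alone, without replicate 1, gave 51 bound genes (9.37% of all genes), and those of replicate 1 alone, without replicate 2, gave 55 (9.23%). The 1098 strongest IDR peaks alone gave 40 (5.36% of all genes), 21 of the large and 19 of the small subunit. A window of 500 bp upstream to 100 bp downstream held a summit at 50 genes, where it did at 5.6% of all genes. The window of 1000 bp upstream gave 53 (7.32%), and 5000 bp upstream gave 57 (15.1%). Counting from any transcript start left 55 (10.3%), and counting any peak base in the window left 55 (9.99%).

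Every ribosomal protein gene had an entry in the relaxed pooled list. It had a summit in the window of all 81, where it had one for 51.8% of all genes. The relaxed list of replicate 1 had one at 74 of them (54.9% of all genes), and that of replicate 2 at 80 (54.3%). Low in this list, entries cannot be told from background, and 6 of the 26 unbound genes had none in replicate 1. Their strongest relaxed entries had a median signal of 18.7 (5.42 to 28.9), where the IDR list ended at 29.63 and the next relaxed entry had 29.62. Among the 18031 unbound genes that are not ribosomal, 46.6% had a relaxed summit at all.

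The unbound genes of highest signal sat just under the limit. The first was rps-8 with 28.9 at pooled rank 2276, where the best peaks in its window ranked 1816 in replicate 1 and 3507 in replicate 2. It was followed by rpl-34 with 28.5 (ranks 2278 and 2608) and rpl-1 with 27.1 (ranks 1639 and 5863). Next came rpl-18 with 25.4, rpl-32 with 24.4, rps-27 with 23.9 and rps-3, a gene for a protein of the messenger RNA entry site, with 23.2. The last of the 10 highest were rpl-30 with 20.9, and rpl-11.1 and rps-9 with 20.7 each. On the other side of the limit stood rps-29 with 30.4 and rpl-13 with 31.6, and rps-29 had replicate ranks of 1802 and 2812, against 1816 and 3507 at rps-8.

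Of the unbound genes, rpl-1, rpl-30, rpl-32, rps-8 and rps-27 had a summit among the 2197 strongest peaks of replicate 1 alone, and rla-1 among those of replicate 2 alone. Conversely, 10 of the 55 bound genes were bound in 1 replicate alone and 0 in neither. The pooled rank of the strongest relaxed peak was within 5000 for 16 of the 26 unbound genes (61.5%), against 8.98% of other unbound genes, and within 10000 for 21 (80.8%), against 19.4%. For 16 of the 26 the relaxed summit lay 500 to 100 bp upstream (61.5%), the band that held most bound summits, against 24.8% of the other unbound genes that had a relaxed summit.

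The remaining unbound genes, in falling order of relaxed signal, were rpl-4, rla-1, rpl-26, rps-25, rpl-41.1, rps-11, rla-0, rps-7, rpl-27, rpl-37, rpl-2, rla-2, rps-2, rpl-10, rpl-42 and rpl-25.1. The stalk genes had relaxed signals of 20.2 at rla-1, 16.5 at rla-0, which encodes the stalk's anchor protein, and 8.91 at rla-2. Their summits lay 1301, 1828 and 1475 bp upstream, all outside the band. The weakest was rpl-25.1 with 5.42 at rank 27775 and a summit 187 bp downstream of the start. An IDR summit lay just outside the window at 2 unbound genes, 711 bp downstream of the start of rpl-27 and 784 bp downstream of that of rpl-41.1. The nearest upstream of the window were 2539 bp from the start of rla-0 and 3409 bp from that of rpl-32.

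Pairs of genes with the same number did not always share their state. On X and V, rpl-11.2 was bound with a signal of 119 (ranks 149 and 150), while rpl-11.1 was unbound with a relaxed signal of 20.7 and best ranks of 2360 in replicate 2 and 7155 in replicate 1. The same held for rpl-25.2 with 46.8 (ranks 558 and 2194) and rpl-25.1 with 5.42. It held for rpl-41.2 with 100.03 (ranks 137 and 277) and rpl-41.1 with 18.2, which lie next to each other on chromosome I with the bound summit between their starts. Both were bound at rpl-24.1 with 53.0 and rpl-24.2 with 80.5. Both were also bound where a letter tells the names apart, which marks distinct proteins and not copies, with 35.0 at rpl-7 and 90.6 at rpl-7A, and 61.0 at rpl-36 and 37.2 at rpl-36.A. Where copies are nearly identical, short reads can be assigned to either, and the authors' treatment of such reads is not stated.

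The summits were searched for sequence elements within 100 bp on both strands, at the 52 distinct member peaks and at the 2122 other nuclear IDR peaks. The Hox-PBC composite, searched as TGATNNAT, was found at 1 of 52 (1.92%, interval 0.340 to 10.1), against 22.3% of other peaks. Other IDR peaks that lay 500 to 100 bp upstream of a start held it at 12.1%. The homeodomain core TAATTA was found at 1 of 52 (1.92%), against 5.09%. These are counts of letters and say nothing about whether MAB-5 bound there. The repeat GAGAGA was found at 12 of 52 (23.1%), against 43.03% of other peaks, and TTTCAG, the worm splice acceptor sequence, at 15 (28.8%), against 12.4%. Other IDR peaks 500 to 100 bp upstream of a start were closer, with GAGAGA at 36.1% and TTTCAG at 17.9%. Around the relaxed summits of unbound genes GAGAGA went the other way. It was found at 10 of 26 (38.5%), against 17.7% of relaxed windows below the IDR list. The TATA sequence TATAAA (5 of 52, 9.62%, against 12.4%), a run of 8 T (7, 13.5%, against 11.8%) and the E-box CACGTG (2, 3.85%, against 5.75%) differed less. The element GCGCAGGG of dosage compensation sites was found at 0 of 52, against 0.943%. The median GC content was 42.3% in member windows and 43.3% in the others.

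All 6-mers held by at least 8 of the 52 windows, 319 in all, were then ordered by their share against other IDR peaks. The first was ACCGTA, at 26 of 52 (50%, interval 36.9 to 63.1), against 5.66% of other peaks and 10.4% of other peaks in the band 500 to 100 bp upstream of a start. It was held at 18 of 32 large subunit genes and 9 of 23 small subunit genes (56.3% and 39.1%), whose intervals of 39.3 to 71.8 and 22.2 to 59.2 overlap. Of 168 7-mers the first was GGCCTAA, at 13 of 52 (25%, interval 15.2 to 38.2), against 0.895% of other peaks. Others came close: the ratio of shares was 8.84 for ACCGTA and 8.74 for GGTAAC. It was 27.9 for GGCCTAA and 27.2 for CGGTAAC. The 6-mer CCTAAA, with a ratio of 8.63, was at 22 of 52 windows (42.3%). ACCGTA and GGCCTAA were picked on these windows as the first of many, so their shares at bound genes are a description of that choice.

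The windows of the 26 unbound genes played no part in that choice. Around their strongest relaxed summits the 6-mer was found at 9 of 26 (34.6%, interval 19.4 to 53.8), against 4.85% of all relaxed windows below the IDR list. The 7-mer was found at 6 of 26 (23.1%, interval 11.0 to 42.1), against 1.10%. In the 16 whose relaxed summit lay in the band 500 to 100 bp upstream, 8 had the 6-mer (50%) and 5 the 7-mer (31.3%). The shares of 4.85% and 1.10% cover relaxed windows at any position. Other relaxed windows in the band were not counted, so a like background is lacking. In fixed promoters of 300 bases, from 250 before to 50 after the start, the 6-mer was present at 13 of 81 (16.0%), against 8.11% of all promoters, and the 7-mer at 13 of 81 (16.0%), against 1.57%. The 6-mer thus lies mostly farther upstream than a promoter of that length reaches.

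**Figure D4:**
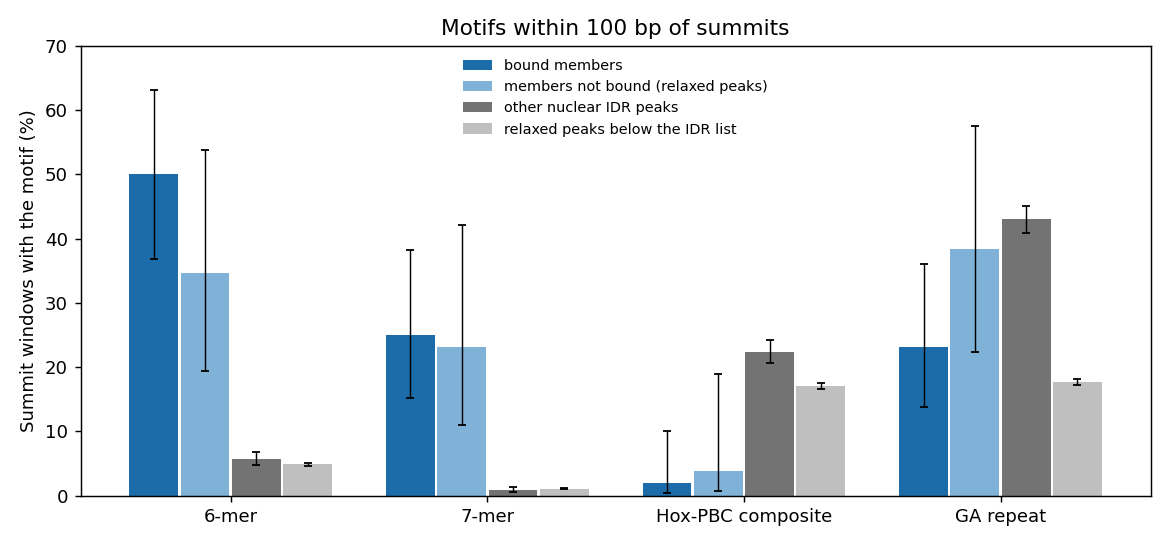
Share of summit windows (100 bp to each side) holding the 6-mer ACCGTA, the 7-mer GGCCTAA, the Hox-PBC composite and the GA repeat, with 95% Wilson intervals, for 52 peaks at bound genes, relaxed peaks of 26 unbound genes, 2122 other nuclear IDR peaks and relaxed peaks below the IDR list. The 6-mer reaches 50% and 34.6% in the blue bars of ribosomal protein genes, against 5.66% and 4.85% in the grey ones, while the composite stands at 1.92% and 3.85% in the blue bars, against 22.3% and 17.1%. The GA repeat stands at 23.1% and 38.5% in the blue bars, against 43.03% and 17.7%.

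The place of the elements within the windows was described next, first at bound genes, on whose windows they had been picked. At bound genes the nearest 6-mer lay a median of 22.5 bp from the summit, and within 50 bp at 24 of the 27 genes that had it. It was 0.5 bp from the summit of rpl-6 and 3.5 bp from those of rpl-3, rpl-17 and rpl-33. The 7-mer lay a median of 73 bp from the summit and on the gene's side of it at all 13 genes. On the gene's strand ACCGTA was read as written in 18 of 27 cases and as TACGGT in 9, so its direction was mixed. The 7-mer was read as GGCCTAA in 10 of 13. At bound genes the 6-mer lay a median of 300.5 bp and the 7-mer 255 bp upstream of the start, against 304.5 bp and 219 bp at unbound ones. In the windows of unbound genes the nearest 6-mer lay a median of 30.5 bp from the summit, within 50 bp at 5 of 9 genes. The nearest 7-mer there lay a median of 53 bp away, and 6 of 7 occurrences were on the gene's side.

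Of the 55 bound genes 35 had either element near the summit, 5 had both (rpl-3, rpl-7, rpl-15, rpl-17 and rpl-43), and 20 had neither. The genes with neither include strong ones, such as rpl-35, rps-12, rpl-12 and rps-19. Among all nuclear IDR peaks 146 held the 6-mer, 26 of them at ribosomal protein genes (17.8%). The 7-mer was in 32, with 13 at ribosomal protein genes (40.6%). Member peaks were 52 of the 2174 nuclear IDR peaks. Because the elements were picked for their high share at member peaks, these percentages carry that choice and do not measure specificity. Both elements were in 9 peaks, 5 at ribosomal protein genes. Of the other 4, one lay 190 bp upstream of ubl-1 and one 473 bp upstream of ubq-2, though nearest to the start of frg-1 and also in the window of ZK1010.2. Both ubl-1 and ubq-2 encode ribosomal proteins fused to ubiquitin or a ubiquitin-like protein and fall outside the name rule. The remaining 2 were nearest to npp-3 and snpc-3.4.

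The 3 ribosomal protein genes outside the prefixes were examined by the same rule. The small subunit gene ubl-1 was bound with a signal of 35.6 (ranks 1364 and 1493) and the large subunit gene ubq-2 with 65.4 (ranks 891 and 383). The gene for the small subunit scaffold protein, rack-1, was unbound. Both genes of the nascent polypeptide-associated complex, icd-1 (signal 108) and icd-2 (73.8), were bound. The gene tct-1, for a translationally controlled tumour protein, was unbound.

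Other genes of translation served for comparison. All 6 elongation factor genes named eef- were bound, among them eef-2 (signal 90.6, 11 bp upstream) and eef-1A.1 (signal 106, 374 bp upstream), with a median distance of 107 bp upstream. Initiation factor genes named eif- were bound at 9 of 25 (36%, interval 20.2 to 55.5), eif-3.C having the highest signal at 147. Genes of the mitochondrial ribosome, named mrpl- and mrps-, were bound at 19 of 70 (27.1%, interval 18.1 to 38.5), an interval that does not reach that of the cytosolic ribosomal protein genes. One of these, mrpl-49, shared its peak with rpl-28. Genes of the nucleolus and of ribosome assembly were bound at 6 of 12 (50%), including fib-1, nol-56 and nol-58, and those of RNA polymerase I named rpoa- at 0 of 4.

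**Figure D5:**
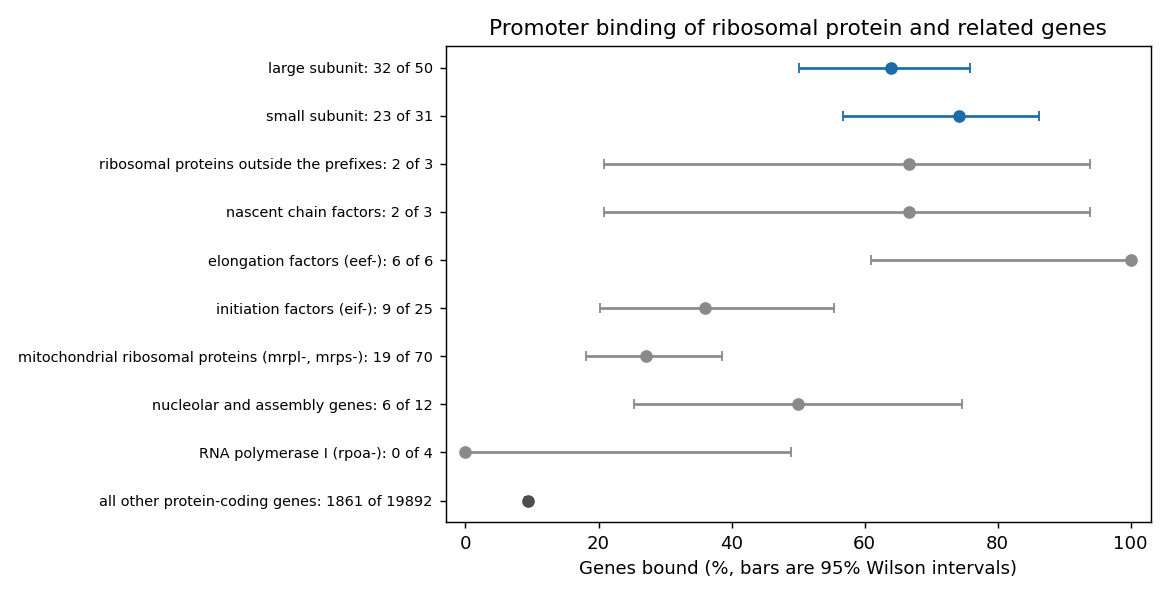
Percentage of genes bound in the large and small subunit lists, in related lists of translation genes and among all other protein-coding genes, with 95% Wilson intervals as bars. The subunits lie at 64% and 74.2%, the mitochondrial ribosomal protein genes at 27.1% and other protein-coding genes at 9.36%.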

How the data were processed

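The measurements are ChIP-seq peak lists of 2 biological replicates of 1 group. The authors deposited text records with the samples, and by these each replicate and the pool of both have a relaxed list made against a control alignment, from which IDR gave the optimal list. The sources used here do not give the aligner, the caller or the threshold. Each peak carries the authors' signal value, used to rank peaks within a list, and the deposited −log10 q-value, which has a ceiling of 3.66 in the pooled list and was not used for ranking. Lists on build ce10 were not used.

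Gene starts came from Ensembl release 115 (WBcel235, the same assembly as ce11). Bases were read from its NCBI copy. The strongest summit in the window of 2000 bp upstream to 500 bp downstream stood for a gene. Peaks of different lists were matched where they shared 1 bp or more. Motifs were searched within 100 bp of summits on both strands, and overlapping motifs were counted separately. Shares have 95% Wilson intervals, which cover counting error only, and no significance test was run. Genes were named by rule: the 20 bound genes of highest and 5 of lowest signal, every unbound gene, those at window edges, the 5 with the largest differences in rank, shared peaks and pairs with the same number. Others named were chosen after their values were seen. The genes and lists were chosen with earlier results of these data known. The steps were tested on simulated peaks and run with pandas 2.3.3, numpy 2.4.6, scipy 1.17.1 and matplotlib 3.10.9 under Python 3.11.15. Alternatives varied the replicate, threshold, window, gene start and assignment.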

Additional observations from a re-analysis of the deposited data

How the results depend on the processing

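Giving each IDR summit only to its nearest gene start lowered the count of bound ribosomal protein genes to 31. These were 20 of the large and 11 of the small subunit, and the 11 include rps-25, which is unbound by the window rule. The 1098 strongest IDR peaks alone left 21 of the large subunit. Requiring each peak to cover 50% of the other when lists were matched left 27 bound genes ranked within the first 2197 of both replicates, in place of 45. Leaving out 1 replicate at a time gave 51 to 55 bound genes, 29 to 32 of the large and 22 to 23 of the small subunit, a median summit distance of -309 to -285 bp, and 20 to 25 of the 26 unbound genes with a relaxed summit. Under the 9 alternatives for binding, 22 bound genes were bound in every one, and 18 unbound genes stayed unbound in every one. Over its alternatives the median distance lay between -314 and -285 bp and the median signal between 57.9 and 61.0. No paired analysis was possible because the 2 samples belong to 1 group. With 2 replicates and unknown depth, small differences in rank or signal between genes are not resolved.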
